A study of Mus musculus with 3 samples.

Results

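Granzyme C to G rich T cells were the intratumoral pmel CD8+ T cells with the largest part of their RNA from *Gzmc*, *Gzmd*, *Gzme*, *Gzmf* and *Gzmg*. For every cell with 2000 to 120000 unique molecular identifiers (UMIs, counts of captured RNA molecules) and at most 20% of them from mitochondrial genes, the UMIs of these 5 genes were summed and divided by all UMIs of the cell. The top 10% of the pooled cells by this score, 2845 of 28452 cells, formed the granzyme C to G rich cells, called rich cells from here on, and the other 25607 cells were the comparison. The 5 score genes chose the cells, so their levels and the share of rich cells per library are given as a description, and every test leaves them out.

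The sort, by Thy1.1 and CD8 among live cells, was for transferred pmel T cells, which carry a transgenic T cell receptor for the melanoma antigen gp100. The cells came out of subcutaneous B16F10 melanomas of irradiated C57BL/6 mice on day 18 after tumor injection. Before transfer the pmel cells were activated with gp100 peptide and a cytokine at 10 nM, and the mice then received 4 intraperitoneal doses of 2.5 μg. In sIL-2, the cells were preconditioned with super IL-2, an IL-2 with high affinity for IL-2Rβ, and the mice received sIL-2. In IL-2/21-Trikine, both steps used sIL-2 fused to an IL-21 mutant that binds IL-21Rα without signaling. In sIL-2 + IL-21, the cells were preconditioned with both cytokines and the mice received sIL-2 alone. Each treatment was 1 library of 3′ single-cell RNA-seq, so no difference between treatments could be tested, and how many mice each library drew on was not found. Throughout, a run of 3 values gives sIL-2 first, IL-2/21-Trikine next and sIL-2 + IL-21 last.

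Granzymes are serine proteases that cytotoxic T cells and NK cells store in granules and deliver into target cells through pores of perforin. Granzyme B, which cuts caspases and other substrates after aspartate, and granzyme A, a tryptase, are found in mice and humans, whereas granzymes C to G are rodent duplicates that lie next to *Gzmb* in one cluster. Granzyme C can kill cells without caspases, while the roles of granzymes D to G are little known. In mouse T cells these genes come on late after strong activation with IL-2.

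The score genes lie in one cluster on chromosome 14 and their start regions are near copies of one another. A window of 95 bases before each transcription start, from RefSeq on GRCm38.p6, is printed for all 5 because the rule treats them as one unit. Each window reads 5′ to 3′ on the minus strand, and the capitals mark exact matches to TGTGGT, a core of RUNX sites, and to TGACGTCA, the cyclic AMP response element. The windows lie at chr14:56234676-56234770 for *Gzmc*, chr14:56132616-56132710 for *Gzmd*, chr14:56120649-56120743 for *Gzme*, chr14:56211451-56211545 for *Gzmf* and chr14:56159618-56159712 for *Gzmg*.
Gzmc: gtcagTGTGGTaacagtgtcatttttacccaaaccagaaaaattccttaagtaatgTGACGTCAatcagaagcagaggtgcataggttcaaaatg
Gzmd: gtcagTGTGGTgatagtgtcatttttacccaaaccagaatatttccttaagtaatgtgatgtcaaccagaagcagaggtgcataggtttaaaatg
Gzme: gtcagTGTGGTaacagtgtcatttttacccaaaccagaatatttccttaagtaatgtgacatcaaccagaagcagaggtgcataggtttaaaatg
Gzmf: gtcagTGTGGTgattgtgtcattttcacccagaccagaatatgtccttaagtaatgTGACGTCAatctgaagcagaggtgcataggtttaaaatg
Gzmg: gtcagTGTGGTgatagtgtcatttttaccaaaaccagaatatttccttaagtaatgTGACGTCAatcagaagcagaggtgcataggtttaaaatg
Identity between windows ran from 89.5% for *Gzmc* and *Gzmf* to 96.8% for *Gzmd* and *Gzmg*. Over the whole promoter (250 bases before to 50 after the start, both strands), each of the 5 held 2 matches to TGTGGT, a motif present in 14.2% of 27025 RefSeq promoters. The letters TGACGTCA, present in 1.62% of them, occurred once each in *Gzmc*, *Gzmf* and *Gzmg* and not in *Gzmd* or *Gzme*, and this motif was added after the sequences had been looked at. The letters TTCNNNGAA (STAT, 7.18% of promoters), TGANTCA (AP-1, 6.87%) and GGTGTGA (T-box, 3.31%) were in none of the 5. These are matches of letters and not sites of binding.

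Levels are given as CPM, the UMIs of a gene over all UMIs of the same cells, scaled to a common total. *Gzmc* carried most of the score. In rich cells it stood at 10822, 11190 and 10672 CPM, and in other cells at 1168, 1175 and 2468 CPM. Every rich cell had a *Gzmc* UMI, with a median of 235 per cell over the 3 libraries. *Gzmf* was next at 4206, 2754 and 4021 CPM in rich cells against 119, 62.1 and 224 CPM in other cells. *Gzmd* reached 1794, 879 and 1106 CPM and *Gzme* 1140, 567 and 814 CPM in rich cells. *Gzmg* was the lowest, at 272, 140 and 168 CPM in rich cells and at 0.814 to 3.07 CPM in other cells. Counts at the 3′ end are not divided by gene length, so this order compares molecules captured. The rich cells held 63.6% of all score UMIs and 15.5% of all UMIs.

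**Figure D1:**
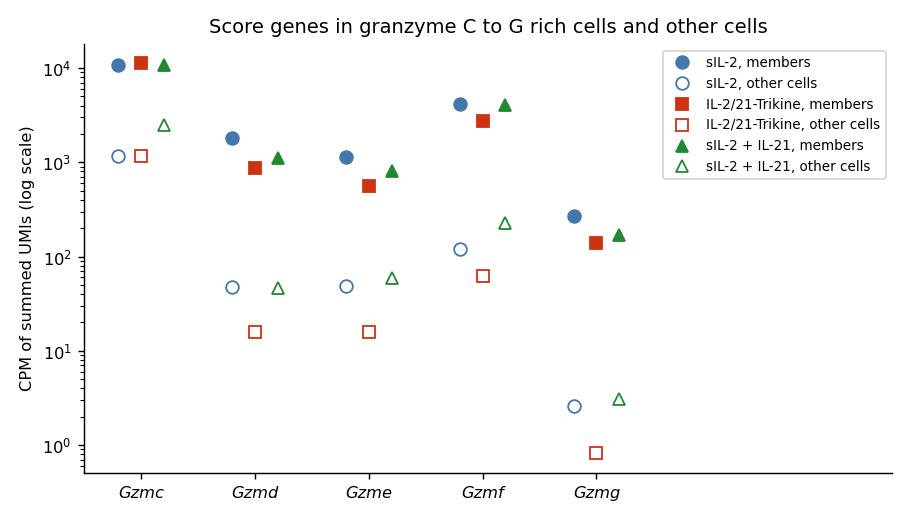
CPM of the 5 score genes (log axis) summed over rich cells (members, filled) and other cells (open) of each library. *Gzmc* lies between 10672 and 11190 CPM in the rich cells of the 3 libraries, and *Gzmg* is the lowest of the 5 in both kinds of cell.

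The limit fell at a score of 0.884%, within a continuous range. The lowest rich cell scored 0.88447% and the highest other cell 0.884375%, and 339 rich cells and 393 other cells lay within 10% of the limit. The limit is a choice within a range, and these scores do not say whether the cells are a separate type. Median scores of rich cells were 1.44%, 1.27% and 1.38%, and the highest cell, in sIL-2 + IL-21, had 14.9% of its UMIs from the 5 genes. Of the other cells, 25.9% had no score UMI.

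Rich cells made up 7.62% of the kept cells in sIL-2 (571 cells, exact 95% interval 7.03% to 8.24%), 4.08% in IL-2/21-Trikine (470 cells, 3.72% to 4.46%) and 19.1% in sIL-2 + IL-21 (1804 cells, 18.3% to 19.9%). The intervals cover counting error only, and 63.4% of all rich cells came from sIL-2 + IL-21. The same order, with sIL-2 + IL-21 highest and IL-2/21-Trikine lowest, was found in the top 5% (4.27%, 1.69% and 9.62%) and the top 20% (14.8%, 10.5% and 35.7%) of cells. A score without *Gzmc* also kept this order, at 8.98%, 3.59% and 18.6%. It shared 416 cells with the rich cells in sIL-2, 252 in IL-2/21-Trikine and 1271 in sIL-2 + IL-21. Other cells also differed between the libraries: their median score was 0.0113%, 0.0136% and 0.0774%.

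Rich cells were deeper than other cells. Their median UMI count was 26165, 19623.5 and 22691, against 12596, 11339.5 and 12680 in other cells, a ratio of 2.08, 1.73 and 1.79. Because depth moved with the score, each comparison with other cells was repeated against other cells of the same library matched 1 for 1 on total UMIs, a setting chosen after the data had been seen. Its values are given for named genes where a direction turned or a call was lost or a value moved by more than 1.5 times, and for list medians that moved by as much, and the part of depth in the other differences was not tested.

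The 5 genes were not present in the same proportions in all rich cells. *Gzmc* was the highest of the 5 in 2300 of 2845 rich cells, *Gzmf* in 519, *Gzmd* in 19, *Gzme* in 7 and *Gzmg* in none. All 5 genes were detected together in 24.5%, 12.3% and 22.9% of rich cells and in 0.433%, 0.127% and 0.799% of other cells. Within rich cells, UMIs of *Gzmd* and *Gzme* ranked alike, with a Spearman correlation over cells of 0.84, 0.82 and 0.81, while *Gzmc* and *Gzmf* had -0.37, -0.31 and -0.31. These are descriptions over cells that share a library and were selected on the sum of the same genes, so they carry no test. In transcripts of these genes, windows of 90 bases shared with another transcript made up 2.17% of *Gzmd*, 1.59% of *Gzmg*, 0.967% of *Gzme* and none of *Gzmc* or *Gzmf*, and none lay in the last 400 bases, where 3′ reads fall.

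The chymase genes on the other side of the score genes were read at low levels in rich cells. *Ctsg*, which encodes the neutrophil protease cathepsin G and neighbors *Gzme*, had 81, 11 and 193 UMIs in rich cells and 8, 5 and 12 UMIs in the far more numerous other cells. These UMIs lay in 25, 7 and 61 rich cells, or 4.38%, 1.49% and 3.38% of them, against 0.116%, 0.0271% and 0.144% of other cells. *Mcpt8*, a protease known from basophils and the next protein-coding gene on, had 100, 31 and 165 UMIs in rich cells and 30, 102 and 50 in other cells, where 84 of the 102 UMIs in IL-2/21-Trikine came from 1 cell. It was detected in 10.5%, 4.68% and 7.48% of rich cells and in 0.332%, 0.163% and 0.577% of other cells. Both passed the filter on low counts through the rich cells alone, so no test is given for them. *Gzmn*, which lies between *Gzmg* and *Gzmf*, had 8, 2 and 12 UMIs in rich cells and 3, 1 and 4 in other cells and was too low for the test. *Mcpt4*, *Mcpt2* and *Mcpt9*, farther out in the cluster, had no UMI in any kept cell, which allows up to 0.0105% of the 28452 cells to yield one. At the opposite end, *Gzmb* stood far above these genes.

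Beyond the score genes, a large part of the transcriptome differed between rich cells and other cells. Summed counts of the 3 libraries were compared with edgeR's quasi-likelihood test with the library as a block. Of 11258 genes, 4342 (38.6%) had a Benjamini-Hochberg adjusted p under 0.05, of which 2303 (20.5%) were higher and 2039 (18.1%) lower in rich cells. Without the block for library the counts were 116 higher and 177 lower. Most differences were small: 208 of the higher and 223 of the lower genes reached 1 log2 unit. The 3 libraries are 3 treatments, so these p-values measure how alike the difference was across them, and the spread between mice is not in them. The direction was the same in all 3 libraries for 4268 of the 4342 genes, and the difference was smallest in sIL-2 + IL-21 for 2809 of them. The median log2 fold change of all genes tested was 0.02, and the medians of gene lists below are read beside it. Counts of list members called are read beside the shares of all genes called, 20.5% higher and 18.1% lower. List medians moved by more than 1.5 times when 1 library was left out are given without it.

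**Figure D2:**
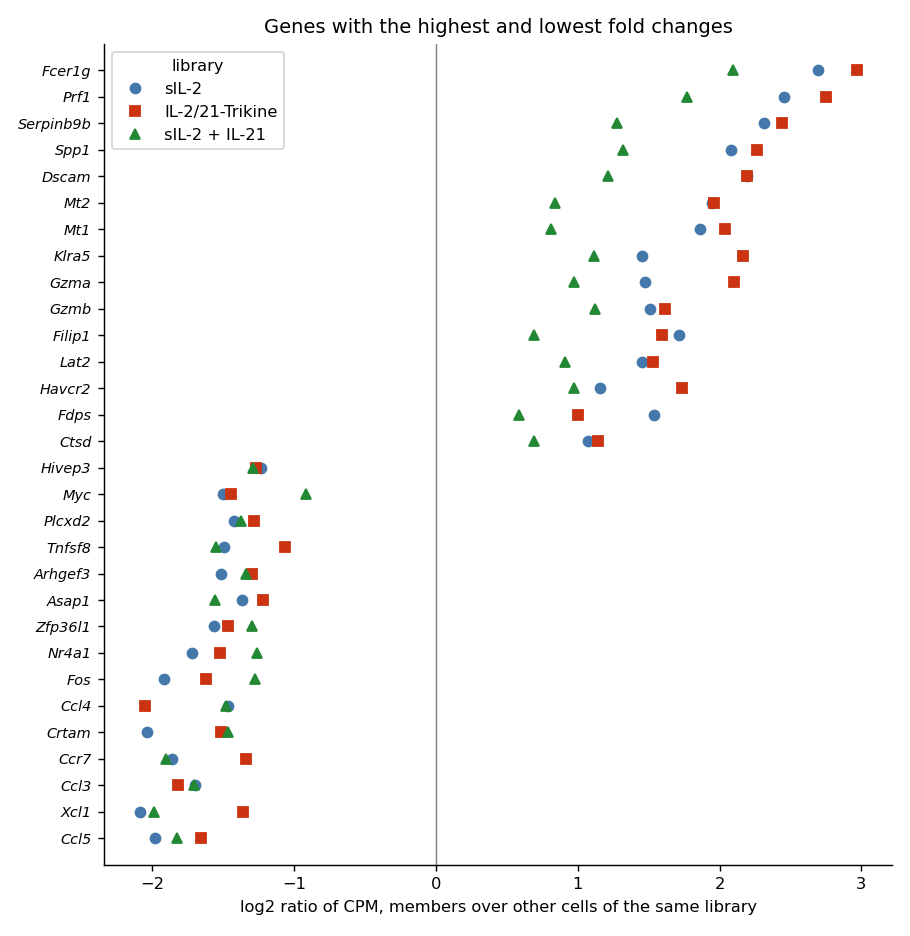
Log2 ratio of CPM, rich cells (members) over other cells of the same library, for the 15 highest and 15 lowest fold changes among called genes of at least 50 CPM. All 30 genes have the same direction in the 3 libraries, and for the 15 higher genes the sIL-2 + IL-21 triangle lies nearest to 0.

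*Prf1*, *Gzmb* and *Gzma* were higher in rich cells. Of 6 genes for other granzymes and perforin, 5 could be tested, and 3 were higher (background 20.5%), 1 lower and 1 neither, with a median log2 fold change of 1.498. By DESeq2 2 were higher. *Prf1*, which encodes the pore-forming perforin, stood at 633, 442 and 569 CPM in rich cells and at 115, 65.6 and 167 CPM in other cells. Its log2 fold change was 2.40 ± 0.16 (SE, edgeR adjusted p = 3.41e-05), and the levels of rich and other cells did not overlap. *Gzmb* stood at 8022, 7556 and 8863 CPM against 2819, 2468 and 4068 CPM, a log2 fold change of 1.498 ± 0.083 (edgeR adjusted p = 1.88e-05). *Gzma* was at 8952, 3931 and 7427 CPM against 3224, 916 and 3789 CPM, a log2 fold change of 1.60 ± 0.17 (edgeR adjusted p = 0.000284). Here the lowest rich level, in IL-2/21-Trikine, was only just above the highest level of other cells, and by DESeq2 the gene did not pass the test (adjusted p = 0.0915). *Gzmm* was lower in rich cells, by 0.60 ± 0.19 on the log2 scale (edgeR adjusted p = 0.0341), at 2.54, 4.69 and 3.69 CPM against 5.63, 4.74 and 6.34 CPM, and it did not pass against other cells of like depth (-0.34) or without sIL-2 (-0.45). *Gzmk*, a tryptase often found in early effector memory cells, did not pass the test (edgeR adjusted p = 0.196), with 50.3, 4.79 and 11.3 CPM in rich and 24.8, 4.11 and 14.6 CPM in other cells.

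The difference in perforin was also one of numbers of cells. After each cell was thinned to 2000 UMIs, 48.2%, 41.5% and 51.7% of rich cells had a *Prf1* UMI, against 12.5%, 8.76% and 17.4% of other cells. Without thinning the shares were 90.9%, 84.7% and 92.7% against 43.3%, 34.4% and 52.9%. In 92 cells with UMIs of at least 3 myeloid markers, a thinned share of 14.1% was found. These cells are no clean background, since 47.8% had a *Cd3e* UMI after thinning and 84.8% without it. Of the 92 cells, 7 were rich cells.

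Genes of the granule machinery moved in both directions. Of 14 genes, 13 were tested, 6 were higher and 4 lower (background 20.5% and 18.1%), with a median log2 fold change of 0.24, which was 0.16 without sIL-2 and 0.11 without sIL-2 + IL-21. *Cst7*, the inhibitor cystatin F that limits granzyme-activating cathepsins, was higher by 0.67 ± 0.07, with 234, 245 and 193 CPM in rich and 150, 147 and 146 CPM in other cells. *Rab27a*, a GTPase of granule docking, was higher by 0.65 ± 0.08, and *Ctsc*, the cathepsin that activates granzymes, by 0.36 ± 0.07. *Srgn*, the proteoglycan that packs granzymes, was lower, with a log2 fold change of -0.27 ± 0.05, as were *Lamp1*, *Lyst* and *Stx11*. Against other cells of like depth *Lamp1* was at -0.21 and *Srgn* at -0.02, and neither *Srgn* nor *Lyst* passed the test.

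Among serpins, which inhibit serine proteases and in part protect T cells from their own granzymes, 2 of 7 were higher and 1 was lower, shares near the background of 20.5% and 18.1%. The median was -0.09 (-0.035 at like depth, -0.054 without sIL-2, and -0.15 with 3 lower without IL-2/21-Trikine). *Serpinb9b* stood at 809, 786 and 634 CPM in rich cells and at 163, 145 and 261 CPM in other cells. Its log2 fold change of 2.09 ± 0.20 (edgeR adjusted p = 0.000153) was the largest of the list. *Serpinb6a* was higher by 0.63 ± 0.08, while *Serpina3g* was lower, with a log2 fold change of -0.26 ± 0.07, and did not pass against cells of like depth (-0.19) or without sIL-2 + IL-21 (-0.20). *Serpinb9*, the inhibitor of granzyme B, did not pass the test, at 342, 320 and 315 CPM in rich and 420, 335 and 351 CPM in other cells. A further list of 9 genes held death ligands, death receptors and costimulatory receptors, including *Cd28* and *Icos*. None was higher and 5, with *Cd28* and *Icos* among them, were lower (background 18.1%), with a median of -0.19. *Fas*, the receptor of Fas ligand, was lower by 1.08 ± 0.07 on the log2 scale, at 19.99, 24.9 and 18.1 CPM in rich cells against 49.5, 51.4 and 39.9 CPM in other cells. Against other cells of like depth this median was 0.02.

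Adaptor and receptor genes known from NK cells included the largest difference among genes of at least 50 CPM. *Fcer1g*, the signaling chain of Fc and several NK receptors, stood at 678, 312 and 433 CPM in rich cells and at 105, 39.9 and 102 CPM in other cells, a log2 fold change of 2.66 ± 0.14 (edgeR adjusted p = 1.8e-05). Of 14 killer lectin-like and innate receptor genes, 11 were tested, 5 were higher and 4 lower (background 20.5% and 18.1%), with a median of 0.26 (0.46 at like depth). *Klrg1*, a marker of terminal effector cells, had 15.9, 2.39 and 4.43 CPM in rich and 3.01, 0.563 and 1.70 CPM in other cells and was higher by 2.02 ± 0.21. *Klre1* was higher by 0.68 ± 0.11 and *Klrd1*, the CD94 chain of inhibitory receptors, by 0.26 ± 0.05 (0.46 at like depth). *Klrk1*, which encodes the activating receptor NKG2D, was lower, with a log2 fold change of -0.45 ± 0.05, and -0.19 against cells of like depth. Outside the list, *Klra5*, a Ly49 receptor gene, stood at 321, 149 and 289 CPM in rich cells and at 117, 33.2 and 133 CPM in other cells. Ly49 genes are close paralogs, so the counts of single members are uncertain. Also outside the lists and among the 15 highest were *Lat2*, an adaptor of immune receptors (1.36 ± 0.11), *Ctsd*, the lysosomal protease cathepsin D (1.05 ± 0.08), *Fdps*, an enzyme of isoprenoid synthesis (1.11 ± 0.15), *Dscam* (1.94 ± 0.18) and *Filip1* (1.39 ± 0.17). The 4 NK cell markers summed to 12.8, 8.67 and 13.2 CPM in rich cells against 4.58, 4.24 and 7.07 CPM in other cells, nearly all of it from *Klrb1c*, the NK1.1 gene, which was higher by 1.19 on the log2 scale (edgeR) and whose part in the difference was not tested. The defining NK gene *Ncr1* had 12, 2 and 23 UMIs in rich cells, under 1 CPM in each library. Without thinning it was detected in 1.05%, 0.213% and 0.388% of rich cells and in 0.101%, 0.0543% and 0.105% of other cells.

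Inhibitory receptors split into members that were higher and members that were lower. Of 11 genes, 4 were higher, 3 lower and 4 neither (background 20.5% higher and 18.1% lower), with a median of 0.05 (0.17 at like depth and -0.044 without IL-2/21-Trikine). *Havcr2*, which encodes TIM-3, stood at 288, 171 and 229 CPM in rich cells and at 129, 51.3 and 117 CPM in other cells, a log2 fold change of 1.36 ± 0.12 (edgeR adjusted p = 0.000142). *Pdcd1*, which encodes PD-1, was at 318, 210 and 223 CPM against 153, 95.7 and 155 CPM, higher by 0.98 ± 0.11 (edgeR adjusted p = 0.000295). *Cd244a*, the receptor 2B4, was higher by 1.85 ± 0.11 and *Entpd1*, the ectoenzyme CD39, by 1.11 ± 0.08. For these 4 genes the levels of rich and other cells did not overlap, but the share of all genes tested with no overlap is not given. *Btla* was lower, with a log2 fold change of -1.99 ± 0.09, *Nt5e*, which encodes CD73, with -1.64 ± 0.10 (-0.95 at like depth), and *Cd160* with -0.91 ± 0.05. In thinned cells, UMIs of at least 2 of *Pdcd1*, *Havcr2* and *Entpd1* were found in 23.8%, 15.5% and 14.97% of rich cells against 5.98%, 2.28% and 6.71% of other cells, and in 3.26% of the 92 cells with myeloid transcripts. Without thinning these shares were 91.2%, 74.0% and 85.6% against 40.3%, 23.4% and 43.1%.

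Stem and memory genes were lower. Of 15 genes, 13 were lower (background 18.1%) and none was higher, with a median of -1.14. Among the 13, *Id3* passed the filter on low counts through the other cells alone. Against other cells of like depth 11 were lower and 2 higher, with a median of -0.66. *Tcf7*, which encodes TCF-1, the transcription factor of stem-like T cells, stood at 7.43, 8.47 and 3.30 CPM in rich cells and at 68.1, 63.3 and 28.5 CPM in other cells. Its log2 fold change was -3.00 ± 0.08 (edgeR adjusted p = 9.2e-07), and rich and other levels were far from overlapping. A *Tcf7* UMI was seen in 1.40%, 1.06% and 0.721% of thinned rich cells and in 14.03%, 12.6% and 7.67% of other cells, while the 92 cells with myeloid transcripts had 4.35% (exact 95% interval 1.20% to 10.8%). Those cells are not clean of T cell RNA, and 43.5% of them had a *Tcf7* UMI without thinning. They therefore set no background for the share in rich cells. *Ccr7*, the receptor that guides cells into lymph nodes, was at 89.4, 191 and 81.0 CPM against 324, 482 and 302 CPM, a log2 fold change of -1.62 ± 0.10. *Cxcr3* had -2.05 ± 0.08, *Slamf6* -2.42 ± 0.14 and *Bach2*, a repressor that holds back effector genes, -1.14 ± 0.05. *Il7r* and *Lef1* did not pass the test at log2 fold changes of -0.07 and -0.02, and against other cells of like depth both were slightly higher, at 0.25 each.

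Transcription factors of effector and exhausted cells also went both ways: of 20 genes, 19 were tested, 7 were higher and 9 lower (background 20.5% and 18.1%), with a median of 0.05 (-0.065 at like depth and 0.016 without IL-2/21-Trikine). *Id2*, which supports effector differentiation, stood at 927, 746 and 867 CPM in rich cells and at 591, 467 and 528 CPM in other cells, a log2 fold change of 0.76 ± 0.04 (edgeR adjusted p = 1.88e-05). *Prdm1*, which encodes Blimp-1, was higher by 0.77 ± 0.10, *Runx3* by 0.65 ± 0.05 and *Eomes* by 1.05 ± 0.10, the last at only 22.2, 8.57 and 4.02 CPM in rich cells. *Tox*, a regulator of exhausted T cells, was lower by 1.38 ± 0.14 on the log2 scale, with 14.3, 21.5 and 4.18 CPM in rich and 35.7, 47.1 and 16.2 CPM in other cells. The T cell receptor-induced genes *Nr4a1*, *Nr4a2* and *Nr4a3* were lower, with log2 fold changes of -1.42 ± 0.08, -0.76 ± 0.05 and -0.84 ± 0.08. *Irf4*, which is also induced through the receptor, had -0.84 ± 0.08.

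**Figure D3:**
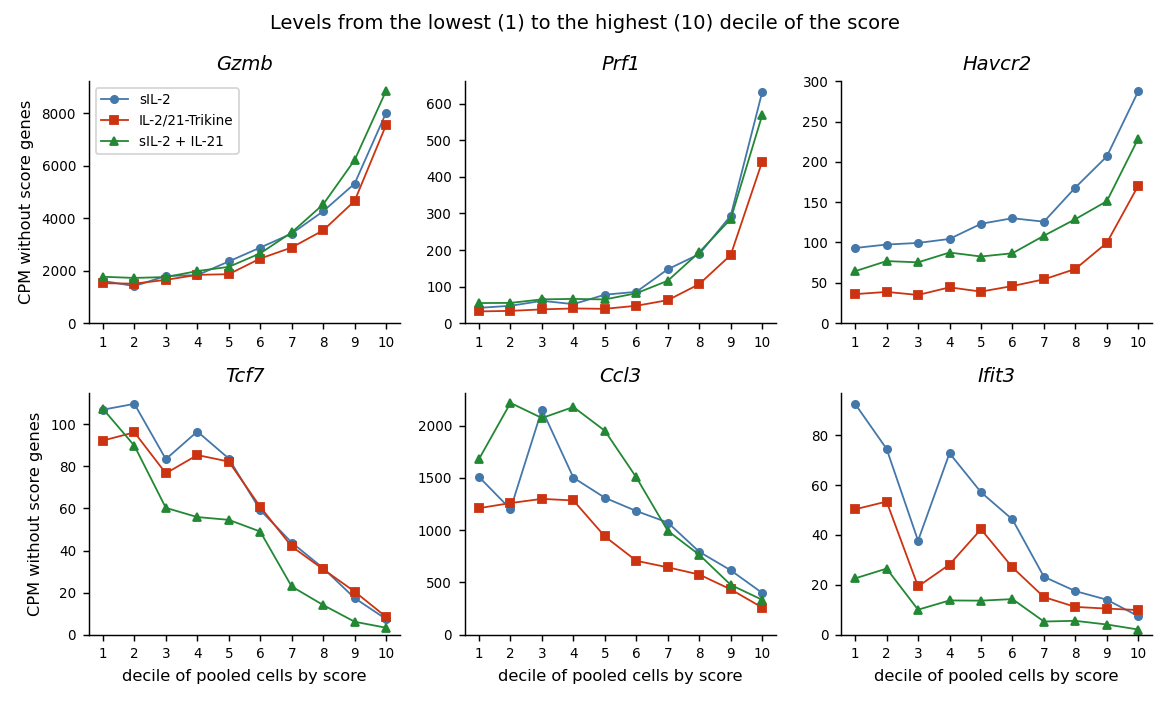
CPM (score genes left out of the total) of 6 genes in deciles of the pooled cells ranked by score, 1 line per library, from the lowest decile (1) to the rich cells (10). *Gzmb*, *Prf1* and *Havcr2* are highest in the last decile of each library, and *Tcf7*, *Ccl3* and *Ifit3* are lowest there.

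Over deciles of all cells ranked by score, these genes changed along the range rather than at its end alone. *Prf1* went from 41.7, 31.8 and 54.8 CPM in the lowest decile to 294, 186 and 285 CPM in the ninth and 633, 442 and 569 CPM in the rich cells. *Tcf7* went from 107, 92.2 and 107 CPM to 17.4, 20.5 and 6.15 CPM in the ninth decile and 7.43, 8.47 and 3.30 CPM in the rich cells. The lowest deciles hold cells with no score UMI and were ordered at random, and the third held deeper cells, with medians of 15606, 14197.5 and 13286 UMIs.

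Most chemokine genes were lower in rich cells. Of 13 chemokines and chemokine receptors, 10 were lower (background 18.1%) and 2 higher (background 20.5%), with a median of -1.16. *Ccl3* stood at 400, 260 and 334 CPM in rich cells and at 1297, 919 and 1090 CPM in other cells, a log2 fold change of -1.66 ± 0.05 (edgeR adjusted p = 9.2e-07). *Ccl5* was at 639, 312 and 315 CPM against 2521, 983 and 1115 CPM, with -1.74 ± 0.06 (edgeR adjusted p = 4.33e-06), and the difference was -0.92 against other cells of like depth. *Xcl1*, the ligand of cross-presenting dendritic cells, was at 1118, 1746 and 927 CPM against 4751, 4488 and 3666 CPM, with -1.73 ± 0.12 (edgeR adjusted p = 4.51e-05). *Ccl4* stood at 1087, 572 and 826 CPM against 2998, 2370 and 2300 CPM, with -1.58 ± 0.10. For these 4 ligands the levels of rich and other cells did not overlap, again without the share of all genes tested beside it. The receptor gene *Ccr2* was higher, by 0.55 ± 0.06.

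Of 12 cytokine genes, 10 were tested, 5 were lower (background 18.1%) and 1 higher (background 20.5%), with a median of -0.23, which was -0.45 without IL-2/21-Trikine. The median was -0.44 in the top 5% of cells, -0.52 with no filter on low counts and -0.70 in cells without UMIs of cell cycle genes. *Il2* had 33, 18 and 68 UMIs in rich cells, or 2.04, 1.79 and 1.53 CPM, against 41.9, 21.8 and 31.5 CPM in other cells, a log2 fold change of -4.16 ± 0.13 (edgeR adjusted p = 1.46e-06). *Il3* was at 4.89, 2.29 and 1.98 CPM against 61.4, 21.5 and 61.9 CPM, with -4.16 ± 0.24 (edgeR adjusted p = 2.38e-05). *Ifng*, the main effector cytokine of CD8+ T cells, was at 533, 296 and 435 CPM against 928, 644 and 756 CPM, with -0.82 ± 0.07. The share of thinned cells with an *Ifng* UMI did not go with this, at 29.8%, 22.3% and 28.3% of rich and 28.5%, 23.0% and 29.4% of other cells (76.7%, 66.0% and 73.6% against 57.2%, 48.8% and 59.8% without thinning), so no order is read from it. *Spp1*, which encodes osteopontin, was the higher one, at 1923, 1107 and 1265 CPM against 455, 230 and 508 CPM, by 1.97 ± 0.16 (edgeR adjusted p = 7.43e-05). Outside the lists, the early response genes *Fos* (log2 fold change -1.50 ± 0.11) and *Zfp36l1* (-1.36 ± 0.06) and the surface genes *Crtam* (-1.59 ± 0.10) and *Tnfsf8*, the CD30 ligand (-1.29 ± 0.09), were among the 15 lowest. So were *Asap1* (-1.31 ± 0.07), *Arhgef3* (-1.30 ± 0.06), *Plcxd2* (-1.28 ± 0.05) and *Hivep3* (-1.18 ± 0.05).

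Receptors of IL-2 and IL-21 and their STAT genes were mostly lower or near even. Of 13 genes, 2 were higher, 6 lower and 5 neither (background 20.5% higher and 18.1% lower), with a median of -0.16 (-0.11 without sIL-2). The number higher was 0 without IL-2/21-Trikine and 1 without either of the others. *Il2rb*, the chain that sIL-2 binds, stood at 510, 337 and 421 CPM in rich cells and at 497, 327 and 401 CPM in other cells, a log2 fold change of 0.13 ± 0.04 (edgeR adjusted p = 0.0411). That call was lost by DESeq2 and when any 1 library was left out, and the value was 0.24 at like depth. The CPM of *Il2rb* hardly differed, and part of its fold change came from the normalization factors of the fit. These were 1.0003, 0.946 and 0.970 for rich cells and 1.05, 1.01 and 1.03 for other cells. *Il21r*, the receptor of IL-21, was at 85.2, 73.9 and 76.7 CPM against 166, 130 and 123 CPM, with -0.73 ± 0.06 (edgeR adjusted p = 0.000115). *Stat5a* had -0.71 ± 0.06. Of 12 feedback genes and targets of STAT5, 6 were lower (background 18.1%) and 3 higher (background 20.5%), with a median of -0.35. Without sIL-2 the median was -0.21, and without IL-2/21-Trikine 1 gene was higher. *Myc* was lower by 1.19 ± 0.11 on the log2 scale, *Pim1* by 0.56 ± 0.08 and *Cish* by 0.37 ± 0.08, while *Gzmb*, which is on this list as well, was higher.

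Interferon-stimulated genes were lower in rich cells: 10 of 12 were lower (background 18.1%) and none was higher, with a median of -0.94. Among the 10, *Oasl1* passed the filter through the other cells alone. *Ifit3* had 7.43, 9.87 and 2.07 CPM in rich cells and 45.2, 26.7 and 8.22 CPM in other cells, a log2 fold change of -1.97 ± 0.18 (edgeR adjusted p = 0.000151). *Isg15* was at 54.7, 71.5 and 25.7 CPM against 155, 125 and 53.3 CPM, with -1.04 ± 0.11 (edgeR adjusted p = 0.000311). The libraries differed as well, so the rich cells of IL-2/21-Trikine overlapped other cells of sIL-2 + IL-21. In thinned cells, at least 2 interferon-stimulated genes had UMIs in 15.8%, 14.5% and 8.43% of rich cells and in 30.8%, 25.2% and 14.3% of other cells (92.1%, 81.5% and 77.3% against 80.1%, 74.3% and 65.0% without thinning). The difference was smaller against other cells of like depth, where the median was -0.50, 5 of 11 genes were lower and 1 was higher, and *Ifit3* had -0.92 and *Isg15* -0.52.

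Cell cycle genes gave opposite answers depending on the cells compared. Against all other cells, 10 of 18 S phase genes were higher (background 20.5%) and none lower, with a median of 0.22, and 10 of 20 genes of G2 and mitosis were higher and none lower, with a median of 0.29. By library, the median log2 ratio of CPM was 0.18, 0.24 and -0.0027 for S phase and 0.53, 0.12 and -0.048 for G2 and mitosis, with values near 0 in sIL-2 + IL-21. These ratios use plain totals, while the fold changes also use the normalization factors of the fit. In sIL-2 + IL-21 the factor was 0.970 for rich and 1.03 for other cells, so no sign is read from ratios this near 0. The count for S phase was 5, 4 and 13 with each library left out in turn, with medians of 0.15, 0.16 and 0.32, and that for G2 and mitosis 3, 13 and 18, with medians of 0.11, 0.32 and 0.45. In the top 5% of cells the counts were 1 and 0, in the top 20% 17 and 19, and in cells thinned to 2000 UMIs 14 and 15. With the top 10% taken within each library they were 3 and 1, with at least 5000 UMIs 6 and 4, and without the library block 0 and 0. Among all genes tested, 1816, 2592 and 1259 were higher in the first 3 of these settings. In the others 1954, 2148 and 116 were higher. *Cdk1*, the kinase that drives mitosis, stood at 75.9, 100 and 94.5 CPM in rich cells and at 51.8, 78.7 and 88.0 CPM in other cells, a log2 fold change of 0.41 ± 0.08 (edgeR adjusted p = 0.00489). Against other cells of like depth, 16 of 18 and 16 of 20 genes were lower and none was higher, with medians of -0.28 in both lists, and *Cdk1* was at -0.22. The proliferation marker *Mki67* did not pass the test against all other cells, at 0.14 ± 0.08, and was lower, at -0.41, against those of like depth.

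Shares of thinned cells with cell cycle genes were higher in rich than in other cells of each library, but not highest there. After thinning, at least 2 S phase genes were seen in 37.1%, 56.0% and 58.8% of rich cells and in 30.3%, 43.4% and 47.8% of other cells (98.4%, 94.7% and 97.8% against 88.0%, 87.3% and 89.3% without thinning). Such genes belong to no one cell type, so no background share is given for them. For G2 and mitosis the shares were 27.8%, 39.4% and 43.5% against 14.3%, 23.6% and 34.2% (71.5%, 74.9% and 87.3% against 39.0%, 48.8% and 62.5% without thinning). In every library the share was highest in the ninth decile of the score, just under the rich cells, at 45.8%, 63.3% and 62.5% for S phase and 33.8%, 45.7% and 50.3% for G2 and mitosis.

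**Figure D4:**
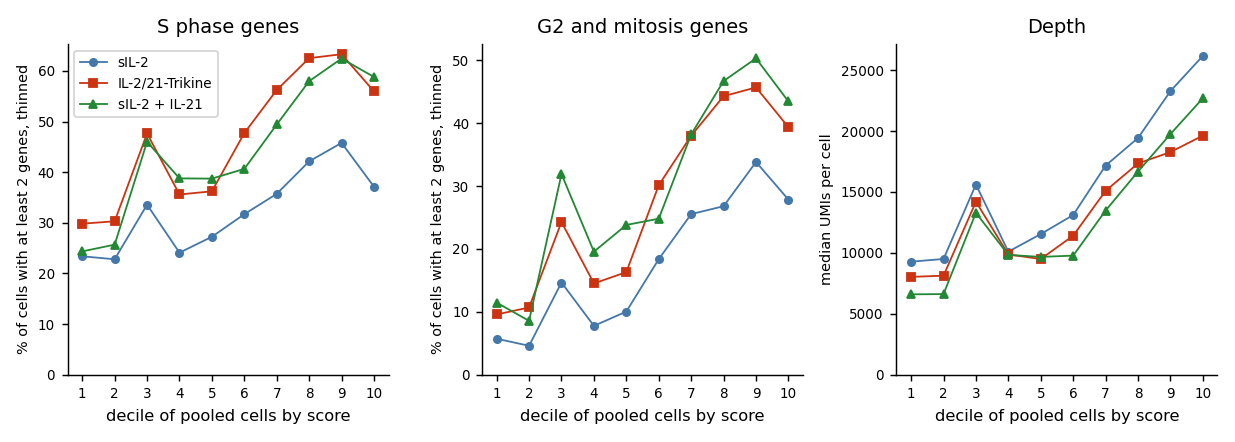
Percent of cells, thinned to 2000 UMIs, with at least 2 S phase genes (left) or at least 2 genes of G2 and mitosis (middle), and median UMIs per cell (right), by decile of the score and library. Both shares and the depth have a first rise at decile 3, both shares are highest at decile 9 and lower in the rich cells (decile 10), and depth is highest in the rich cells, at 19623.5 to 26165 UMIs.

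Glycolysis and hypoxia genes were higher by small amounts: 14 of 18 were higher (background 20.5%) and 1 was lower, with a median of 0.35 (0.22 at like depth). *Bnip3*, a hypoxia-induced gene of mitochondrial turnover, stood at 112, 79.2 and 110 CPM in rich cells and at 61.3, 34.1 and 66.5 CPM in other cells, a log2 fold change of 1.005 ± 0.088 (edgeR adjusted p = 0.000119). *Slc2a3*, a glucose transporter gene, was higher by 0.65 ± 0.06 and *Aldoa* by 0.47 ± 0.04, whereas *Hk2* was lower, with a log2 fold change of -0.36 ± 0.11, and -0.21 without sIL-2. The metallothioneins *Mt1* and *Mt2*, which bind zinc and other metals, were higher, by 1.65 ± 0.20 (edgeR adjusted p = 0.000522) and 1.66 ± 0.20 (edgeR adjusted p = 0.000445). *Mt1* was at 561, 669 and 1488 CPM in rich and 154, 163 and 848 CPM in other cells. The rich cells of sIL-2 and IL-2/21-Trikine were thus below the other cells of sIL-2 + IL-21, and only within a library were rich cells apart. None of the other 3 genes of the metal list passed the test. Of 10 heat shock genes, 3 were lower (background 18.1%) and none higher, with a median of -0.05 (6 lower and -0.19 at like depth, and -0.12 without sIL-2 + IL-21), while 2 were higher without sIL-2, and *Hspa8* had a log2 fold change of -0.24 ± 0.05. Of 12 genes of residency and adhesion, 2 were higher, a share near the background of 20.5%, and 6 lower (background 18.1%), with a median of -0.23. Among the 6, *Itgae* passed the filter through the other cells alone. At like depth 3 were higher and 3 lower, with a median of -0.075. *Rgs1* was higher by 0.40 ± 0.05, and *Cd69*, an early activation and retention marker, was lower, with a log2 fold change of -0.69 ± 0.08 and -0.41 at like depth.

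**Figure D5:**
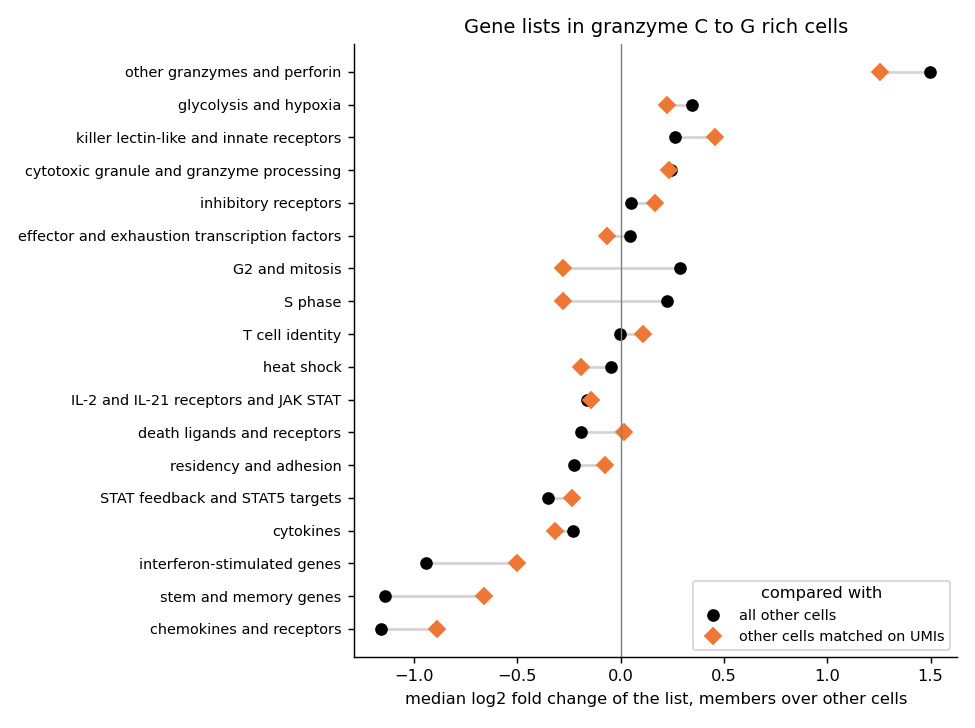
Median log2 fold change of 18 gene lists, rich cells over all other cells (black circles) and over other cells of the same library matched on UMIs (orange diamonds). S phase genes and genes of G2 and mitosis move from above 0 (0.22 and 0.29) to -0.28, while the cytotoxic, stem and chemokine lists stay on their side of 0.

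Rich cells carried the markers of CD8+ T cells. A *Cd3e* UMI was present in 100%, 99.1% and 99.8% of them and a *Cd8a* UMI in 98.6%, 97.4% and 95.3%, with medians of 18, 12 and 13 and of 9, 6 and 4 UMIs per cell. Of 13 T cell identity genes, 2 were higher, 3 lower and 8 neither, shares near the background of 20.5% and 18.1%, with a median near 0 (-0.0035, and -0.046 to 0.027 with 1 library left out). At like depth 6 were higher and 3 lower, with a median of 0.11. *Trac* was lower, with a log2 fold change of -0.31 ± 0.04 (-0.15 at like depth), and *Cd5*, an inhibitor of receptor signaling, with -1.04 ± 0.06.

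Among markers of other cell types, a few were higher in rich cells and most were under 1 CPM there. The 14 myeloid markers summed to 20.7, 13.7 and 15.2 CPM in rich cells against 44.0, 33.9 and 32.0 CPM in other cells. The 5 of them called lower, *Lyz2*, *Cxcl2*, *Il1b*, *S100a8* and *S100a9*, were under 1 CPM in the rich cells of each library and passed the filter on low counts through the other cells alone, so no test is given for them. At like depth 6 could be tested, of which 3 were higher and 3 lower. Their most abundant gene in rich cells was *Cd68*, at 12.6, 7.68 and 9.44 CPM, which was higher than in other cells by 0.46 ± 0.09 on the log2 scale, as was *Cd14* by 0.75 ± 0.15 (1.61 at like depth). Their part in the difference between rich and other cells was not tested. *Lyz2* had 2, 5 and 26 UMIs and *Adgre1* 0, 0 and 1. Of 8 mast cell and basophil markers, *Mcpt8* passed the filter through rich cells alone, and *Kit* and *Cpa3* were tested and higher by edgeR. *Kit*, a growth factor receptor, stood at 23.3, 15.7 and 7.10 CPM against 9.02, 5.81 and 4.55 CPM. *Cpa3*, a mast cell protease gene, stood at 4.95, 2.79 and 1.06 CPM against 2.04, 1.71 and 0.655 CPM, with a log2 fold change of 1.02 ± 0.19, and 1.71 at like depth. The list summed to 34.5, 21.5 and 11.9 CPM in rich cells, with *Kit* the most abundant. The mast cell protease gene *Cma1* had 0, 0 and 2 UMIs in rich cells. The other 4 of the list, *Fcer1a* and *Ms4a2* for the IgE receptor and *Mcpt4* and *Tpsb2* for mast cell proteases, had no UMI in any rich cell, which allows up to 0.105% of the 2845 cells to yield a UMI and sets no limit on cells that express them. Of the 13 cells with UMIs of at least 8 myeloid markers, none was a rich cell, and their pooled score was 0.122%. The 6 melanoma markers summed to 1.86, 2.99 and 1.89 CPM in rich cells and to 7.05, 9.36 and 2.498 CPM in other cells. *Dct*, which alone reached the test, was at 0.37, 0.50 and 0.49 CPM in rich cells and passed the filter through the other cells alone, so no test is given for it. Of 6 stroma, 5 B cell and 4 CD4 and regulatory T cell markers, 1, 1 and 2 reached the test. The stroma list summed to 26.9, 18.9 and 24.6 CPM in rich cells, nearly all of it from the adhesion gene *Pecam1*, with no UMI of *Col1a2* or *Dcn*. *Pecam1* (-0.66) and the CD4 helper gene *Cd40lg* (-1.80) were lower by edgeR, and the rest did not pass. The hemoglobin genes and *Alas2* summed to 79.1 CPM in the other cells of sIL-2 and to at most 1.64 CPM elsewhere.

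Libraries shared 31, 18 and 43 cell barcodes (first for sIL-2 with IL-2/21-Trikine, then for the 2 sIL-2 libraries, then for sIL-2 + IL-21 with IL-2/21-Trikine), of which 0, 2 and 2 were rich in both. The doublet caller Scrublet marked 3, 0 and 0 cells, too few to be used as calls. By its score, which only ranks cells, the 8% most doublet-like cells of a library made up 6.65%, 5.11% and 8.04% of rich cells and 8.12%, 8.12% and 7.99% of other cells.

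Rich cells also varied among themselves in the makeup of their score. In 157, 216 and 537 of them (27.5%, 46.0% and 29.8%) *Gzmc* gave over 90% of the score UMIs, and in 190, 66 and 458 (33.3%, 14.04% and 25.4%) it gave under 50%. Cells were set apart here by values of the score genes, so the following levels are descriptions. Of 2778 genes with at least 50 CPM, 16 differed by at least 0.5 log2 units in the same direction in all 3 libraries, and none by 1. Higher in cells with less *Gzmc* were 9 genes, among them *Fcer1g*, by 0.88, 1.07 and 1.18 log2 units, and *Spp1*, by 1.08, 1.02 and 0.84. Lower were 7 genes, among them *Ccl1*, with log2 ratios of -1.77, -1.42 and -0.87, and *Csf2*, with -1.01, -0.97 and -0.85. *Ccl1*, a ligand of CCR8, was at 2245, 1745 and 986 CPM where *Gzmc* gave over 90% and at 658, 651 and 539 CPM where it gave under 50%. The low gene *Mcpt8* had 6, 3 and 19 UMIs in the first set and 44, 14 and 74 in the second. Cell cycle lists were lower in cells with less *Gzmc*, with medians of -0.42, -0.39 and -0.35 for S phase and -0.34, -0.54 and -0.50 for G2 and mitosis. Median depth of the sets with under 50% and over 90% was 23720 and 26704 UMIs in sIL-2, 21896 and 18103.5 in IL-2/21-Trikine and 20348 and 22725 in sIL-2 + IL-21. The sets also differed in total score, with medians of 1.66% and 1.21%, 1.59% and 1.16%, and 1.98% and 1.15%, and the part of either in these differences was not tested.

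Rich cells were also compared between the libraries. Ratios of CPM between 2 libraries were counted as past the fold at 1 log2 unit, among genes of at least 50 CPM in either, with no test. IL-2/21-Trikine over sIL-2 gave 3 higher genes of 2984 (0.101%) and 11 lower (0.369%). For sIL-2 + IL-21 over sIL-2 there were 4 higher of 3008 (0.133%) and 15 lower (0.499%). IL-2/21-Trikine over sIL-2 + IL-21 gave 10 higher of 2876 (0.348%) and 6 lower (0.209%). These totals of 14, 19 and 16 genes rested on the settings. At a minimum of 20 CPM they were 41, 53 and 36, in thinned cells 48 and 35 for the ratios over sIL-2, and with the top 10% taken within each library 35 for the last comparison. The 3 comparisons share libraries and are not independent. Of the genes past the fold that reached 50 CPM in other cells too, all 10, 17 and 12 had the same direction there, and 8, 10 and 6 were past the fold there as well. With 1 library each, treatment, mice and library cannot be told apart.

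Rich cells of IL-2/21-Trikine had less of the tryptase granzymes than those of sIL-2. *Gzmk* was at 4.79 against 50.3 CPM, a log2 ratio of -3.38 (95% counting interval -3.84 to -2.97), and in other cells the ratio was -2.59. *Gzma* was at 3931 against 8952 CPM, with -1.19 (-1.20 to -1.17), and -1.82 in other cells. *Hilpda*, a hypoxia-induced lipid droplet gene, was at 197 against 457 CPM, and *Ltb4r1*, a leukotriene B4 receptor gene, at 35.0 against 89.4 CPM. Higher were *Cd74*, the invariant chain, at 54.3 against 18.5 CPM (log2 ratio 1.55, interval 1.35 to 1.76) and *Ccr7* at 191 against 89.4 CPM (1.09, interval 0.99 to 1.19), which had 0.57 in other cells. All 18 S phase genes were above those of sIL-2, with a median log2 ratio of 0.68 beside -0.08 for all genes of the comparison. They summed to 1915 against 1220 CPM in rich cells and to 1615 against 1070 CPM in other cells, so other cells differed in the same direction. *Hells*, a helicase of replicating cells, was at 116 against 57.3 CPM (log2 ratio 1.01, interval 0.89 to 1.14). *Tcf7* in rich cells, at 8.47 against 7.43 CPM, had a counting interval of -0.23 to 0.60 and could not be told apart at this depth.

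Rich cells of sIL-2 + IL-21 had more metallothionein than those of sIL-2, with *Mt1* at 1488 against 561 CPM (log2 ratio 1.41, interval 1.37 to 1.44). In other cells this ratio was larger, at 2.46. *Fabp5*, a fatty acid-binding protein gene, was at 223 against 71.5 CPM (1.64, interval 1.55 to 1.73). *Trgc4*, a constant segment of the γ T cell receptor, was at 25.9 against 102 CPM, with -1.97 (-2.09 to -1.86), and *Tnfsf8* at 51.1 against 141 CPM, with -1.46 (-1.55 to -1.38). *Itga1*, an integrin chain of resident cells, was at 31.2 against 83.6 CPM. All 11 interferon-stimulated genes compared were below those of sIL-2, with a median of -0.99 beside -0.05 for all genes. The full list of 12 summed to 322 against 442 CPM in rich cells and to 402 against 873 CPM in other cells, the same direction. S phase genes again lay above sIL-2 in 18 of 18, with a median of 0.67. They summed to 1898 against 1220 CPM in rich cells and to 1858 against 1070 CPM in other cells, so other cells differed in the same direction.

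In IL-2/21-Trikine set against sIL-2 + IL-21, rich cells were higher in interferon-stimulated genes and *Ccr7* and lower in metallothioneins. *Ifi27l2a*, an interferon-induced gene, was at 505 against 142 CPM (log2 ratio 1.83, interval 1.78 to 1.89), with 1.08 in other cells. *Isg15* was at 71.5 against 25.7 CPM (1.48, interval 1.34 to 1.61), and all 11 interferon-stimulated genes compared were higher in IL-2/21-Trikine, with a median of 1.18 beside -0.03 for all genes. The full list of 12 summed to 489 against 322 CPM in rich cells and to 686 against 402 CPM in other cells, the same direction. *Mt2* was at 304 against 799 CPM, with -1.39 (-1.45 to -1.34), and *Il1r2*, which encodes the IL-1 decoy receptor, at 43.5 against 97.6 CPM, with -1.17 (-1.31 to -1.02). Between the rich cells of the libraries, log2 ratios ran from -0.52 to -0.15 for *Prf1* and from -0.23 to 0.14 for *Gzmb*. In other cells the same ratios ran from -1.35 to 0.53 and from -0.72 to 0.53. Rich cells of all libraries passed the same score limit, and both genes were highest in the last decile of the score. The part of this selection in the narrower ranges was not tested.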

How the data were processed

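Single-cell RNA-seq counts of 3 libraries, 1 per treatment, were used. The authors sorted live Thy1.1+CD8+ cells, prepared 10x 3′ libraries and deposited whole-number UMI counts per gene and cell from Cell Ranger, with introns counted. Their methods name GRCm39 while the submitters' processing notes list mm10, and no coordinate of the count files was used. Of 31026 deposited cells (7805 in sIL-2, 13350 in IL-2/21-Trikine, 9871 in sIL-2 + IL-21) with 33696 genes each, 28452 had 2000 to 120000 UMIs and at most 20% mitochondrial UMIs. The study's own minimum was 500 UMIs, which is given as an alternative. Summed UMIs of rich cells were 16458284, 10189137 and 45245536, and of other cells 113427927, 154862070 and 122443597. Doublets were not removed.

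For rich against other cells, UMIs were summed per library into 6 sums, score genes were left out of totals and tests, and genes with a mean of at least 1 CPM were tested with edgeR 4.0.16 (R 4.3.3, TMM, quasi-likelihood F test, library as block, Benjamini-Hochberg adjusted p under 0.05). Errors beside log2 fold changes, called SE, are the absolute fold change divided by the square root of the test's F value. They are approximate and carry the same information as the p-value. The 6 sums leave 2 residual degrees of freedom per gene. In simulated counts of this design with 11235 genes, 88.3% of genes changed by 0.5 log2 units and 100% of those changed by 1 or more were recovered. The simulation gave every gene the same spread and changed 60, 73 and 63 genes by 0.5, 1 and 2 log2 units. Its rates may therefore not hold for these data, where far more genes differed. Within rich cells, libraries were compared by ratios of CPM with 95% counting intervals and no test. Intervals on shares are exact binomial, the limit set by a count of 0 is 3 counts, and all cover counting error only. Thinning drew 2000 UMIs per cell. Shares are also given for 92 cells with UMIs of at least 3 of 14 myeloid markers, which held T cell RNA and set no clean background. Promoter sequences and gene order are from RefSeq GRCm38.p6, and shared stretches of 90 bases were counted in GENCODE transcripts.

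The genes named are the 5 score genes, members of fixed gene lists, the 15 highest and 15 lowest called genes of at least 50 CPM, the 5 highest and 5 lowest ratios between libraries (the most telling of these), and neighbors of the score genes, with the 2 strongest genes each way of the split by *Gzmc* share added after their values were seen. The cells and lists were chosen with earlier results of these data known. Alternatives were DESeq2 1.42.0, RLE size factors, no filter, no block, each library left out, other score limits, UMI minimums, thinning, and leaving out doublet-like, myeloid or cycling cells. Python 3.11.15 with scanpy 1.11.5 was used. List members that are not named enter only through counts and medians.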

Additional observations from a re-analysis of the deposited data

Results flagged for a closer look

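*Mki67* and *Gzmk* differed in direction between the libraries when rich cells were set against other cells of the same library, and this difference was not tested. *Mki67* had log2 ratios of CPM of 0.26 in sIL-2, 0.11 in IL-2/21-Trikine and -0.17 in sIL-2 + IL-21, each with a counting interval clear of 0 (0.20 to 0.33, 0.04 to 0.17 and -0.21 to -0.13). *Gzmk* had 1.02 in sIL-2 (0.91 to 1.13), 0.23 in IL-2/21-Trikine (-0.24 to 0.64) and -0.36 in sIL-2 + IL-21 (-0.51 to -0.22), so the interval of IL-2/21-Trikine includes 0. Neither gene passed the test over the 3 libraries.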

How the results depend on the processing

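The number of genes higher in rich cells (2303) was 116 without the library block and 1259 in thinned cells, and the number lower (2039) was 177 and 1329. With 1 library left out, 1496 to 2618 genes were higher and 1681 to 2372 lower, the fewest higher without sIL-2. No filter on low counts gave 2353 and 2800, RLE size factors 2201 and 2248, DESeq2 1800 and 1797, and other cells matched on UMIs 1733 and 1815, where 1404 and 1183 of the genes were shared and 50 were called in the opposite direction. Genes past the fold between rich cells of IL-2/21-Trikine and sIL-2 (14) were 48 in thinned cells and 41 at a minimum of 20 CPM. For sIL-2 + IL-21 and sIL-2 (19) they were 35 and 53. For IL-2/21-Trikine over sIL-2 + IL-21 (16) they were 36 at 20 CPM and 35 when the top 10% was taken within each library. Of list medians, 304 stayed within the spread between libraries over the alternatives, 58 moved and 3 reversed from beyond that spread: death ligands and receptors (0.017) and S phase (-0.28) against cells matched on UMIs, and myeloid markers (0.54) without cells with myeloid transcripts, where 3 of the 8 genes could still be tested. Medians that lay within the spread also changed sign against matched cells, with G2 and mitosis at -0.28, effector and exhaustion factors at -0.065 and T cell identity at 0.11. Of single genes, *Cdk1* (-0.22), *Mki67* (-0.41), *Il7r* (0.25) and *Lef1* (0.25) reversed against matched cells, *Mki67* (-0.12) and *Lef1* (0.012) in the top 5% of cells, *Gzmk* without sIL-2 (-0.15 to 0.93 with 1 library left out) and *Lef1* without IL-2/21-Trikine (-0.074 to 0.031). *Mki67* (0.27) and *Gzmk* passed the test without sIL-2 + IL-21, and *Il7r* (-0.19) without sIL-2. The cause was not tested. Rich and other cells of a library were paired by the library block. Between treatments, no paired analysis was possible because each had 1 library. With 1 library per treatment, no alternative separates treatment from mice and library.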
